A study of Mus musculus with 6 samples.

Results

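Complement is a cascade of secreted proteins that tags microbes and damaged cells for uptake, recruits leukocytes and can puncture membranes. The data here describe 9 of its genes that connective tissue cells can make: C3, C1s, C1ra, C2, C4b, Cfb, Serping1, Masp1 and Cfp. They were taken by symbol from count tables that name 23329 genes, and C1q, made mainly by macrophages, is not among them. All 9 had a row and all 9 had enough counts to be tested.

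Expression was measured by RNA-seq in primary cultures of small-intestinal mesenchyme, the connective tissue and muscle layers of the gut wall, from C57 mice. There were 3 libraries from E14.5 embryos (embryonic day 14.5), called embryonic here, and 3 from adult animals. No genotype or age in weeks is given for either group. In both groups the epithelium was stripped with a chelator, the remainder was dissociated with dispase and collagenase, and cells were kept in serum with the ROCK inhibitor Y27632 until confluent and harvested at passage 2 to 3. The adult villi were scraped off first and the embryonic gut was cut into pieces, so tissue handling and stage cannot be told apart. The table names also carry the letters PBS, whose meaning the labels do not give, and nothing says whether separate animals gave the cultures of a group, so p-values measure only the spread between these cultures.

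Counts assigned to genes came to between 18850224 and 32672370 per library, with adult replicate 2 the shallowest. Mesenchymal genes were abundant: Sparc, a matrix protein gene, lay between 6507 and 11859 CPM, and Col1a1, a chain of collagen I, at 3708 to 11534 CPM (counts scaled to a common library size), and the muscle genes Acta2 and Tagln were also abundant, at 8666 to 15462 and 4534 to 7065 CPM. Epcam, which marks epithelium, lay between 0.0618 and 0.141 CPM, with Fabp2 at 0, while the keratin gene Krt20 measured 61.4, 47.0 and 24.4 CPM in embryonic and 13.4, 9.09 and 13.7 CPM in adult replicates 1, 2 and 3. Macrophage and leukocyte markers summed to 215, 417 and 2358 CPM in embryonic replicates 1, 2 and 3 and to 178, 26.7 and 50.4 CPM in adult replicates 1, 2 and 3. In the same order, endothelial markers, led by Emcn and Pecam1, summed to 39.1, 17.9 and 13.0 CPM and to 29.5, 1920 and 421 CPM, and mesothelial markers, led by Upk3b and Upk1b, to 163, 789 and 153 CPM and to 1487, 546 and 745 CPM. Genes of hepatocytes, the cells that make most complement in blood, summed to 1.02 to 2.50 CPM, and 4 of the 10 with a row (Ttr, Fga, Fgb and Serpina1a) had no counts in any library. Neural and glial markers, led by Tubb3, summed to 13.8 to 146 CPM.

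The cascade can start in 3 ways that meet at C3. In the classical pathway, C1q bound to antibody activates the proteases C1R and C1S, which cut C4 and C2. In the lectin pathway, collectins and ficolins bound to sugars activate proteases of the MASP family. In the alternative pathway, C3 itself binds factor B, and properdin steadies the complex. C1 inhibitor, the product of Serping1, blocks C1R, C1S and some of the MASP proteases. The liver supplies most circulating complement, while fibroblasts and macrophages make components locally.

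C3 was the 1 gene of the 9 that passed the test, and it was far lower in the embryonic cultures. C1s, C1ra, Serping1 and C4b were lower and Masp1 and Cfp higher in all 3 embryonic libraries than in any adult library, but did not pass. C2 and Cfb overlapped between the stages. Of 13478 genes tested, 1.08% passed in either direction and 0.838% were called lower in E14.5, with edgeR's quasi-likelihood test and a Benjamini-Hochberg adjusted p of 0.05. Groups did not overlap for 24.1% of all genes tested, with 12.0% lower and 12.1% higher in E14.5, against 5 and 2 of these 9. The median log2 fold change, E14.5 over adult, was -2.04 for the 9 and 0.01 for all genes tested. An unadjusted p under 0.05 was found for 7 of the 9 and for 2413 of all genes tested. Since the 9 were chosen with earlier results of these libraries known, their counts are a description.

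**Figure D1:**
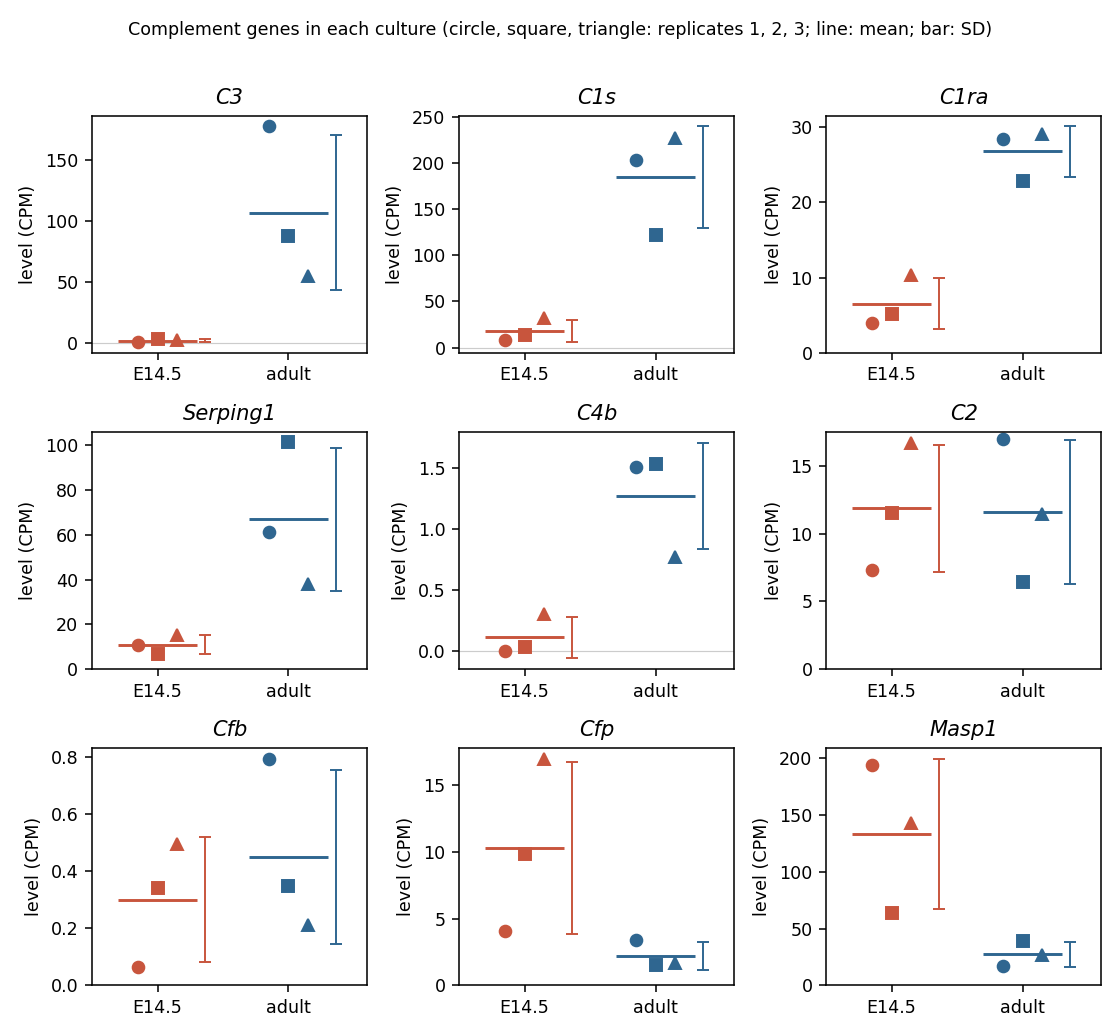
Level of each of the 9 complement genes in CPM (counts scaled to a common library size, linear axis) in the 3 E14.5 (red) and 3 adult (blue) libraries, with a line at the mean and a bar of 1 SD. C3, C1s, C1ra, Serping1 and C4b lie lower in every embryonic library, Masp1 and Cfp lie higher, and C2 and Cfb overlap.

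C3 is the central component: its cleavage releases the inflammatory peptide C3a and leaves C3b bound to the target. It lies on mm10 chr17:57203967-57228136 on the minus strand. Its level was 0.813, 2.89 and 2.07 CPM in embryonic replicates 1, 2 and 3, which rest on 26, 93 and 67 counts. In adult replicates 1, 2 and 3 it was 177, 87.3 and 54.9 CPM. The adult libraries spread over a wide range, but the lowest of them was far above the highest embryonic one. The means were 1.92 ± 1.04 CPM in embryonic cultures and 107 ± 63.4 CPM in adult cultures (SD, n = 3 each). C3 fell by 5.79 on the log2 scale in E14.5 (SE 0.68, adjusted p = 0.033, edgeR), so the adult level was 55.2-fold higher. Between libraries that share a title prefix, whose meaning the labels do not give, the log2 difference was -7.66, -4.89 and -4.69. The call depended on single libraries. Leaving out embryonic replicate 1, 2 or 3 gave adjusted p = 0.0997, 0.029 and 0.067 in edgeR. Leaving out adult replicate 1, 2 or 3 gave 0.055, 0.062 and 0.132 with edgeR, and the log2 fold change in these fits lay between -6.20 and -5.21.

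Markers of other cell types differed between the libraries, and the C3 values can be set beside them. Adult replicate 1, with the highest C3, had 29.5 CPM of summed endothelial markers, within the range of the embryonic libraries. The highest embryonic sum, 39.1 CPM in replicate 1, held 22.5 CPM of Emcn. Among the single markers, named after their values were seen, Pecam1, Cdh5, Kdr, Tek, Tie1 and Esam were higher in adult replicate 1 than in any embryonic library. Egfl7 and Prox1 were lower there, and Emcn and Lyve1 lay within the embryonic range. Embryonic replicate 2 had a higher mesothelial marker sum than adult replicates 2 and 3 (789 against 546 and 745 CPM). Its C3 level was 2.89 against 87.3 and 54.9 CPM. The single mesothelial markers, named after their values were seen, were mixed. Msln, Upk1b, Wt1 and Krt19 were higher in embryonic replicate 2 than in both adult libraries, and Upk3b lay between them. Lrrn4 (10.0 against 99.9 and 36.7 CPM) and Bnc1 (23.8 against 32.0 and 35.1 CPM) were lower, with no overlap between the groups. Adult replicate 1, with the highest C3, also had the highest mesothelial sum, 1487 CPM, and embryonic replicate 2 had the highest mesothelial sum and the highest C3 of its group. Leukocyte markers were lower in every adult library than in any embryonic one. Within the mesenchyme, Pdgfra, a growth factor receptor gene of fibroblasts named here after its values were seen, was also called lower in embryonic cultures, at 2.47, 3.85 and 4.45 CPM against 29.5, 81.0 and 31.7 CPM in replicates 1, 2 and 3 of each stage (log2 fold change -3.72, adjusted p = 0.036, edgeR). It was the 1 call among 11 mesenchymal markers tested, of which 9 had a negative and 2 a positive value, with a median of -0.36, Col1a1 at 0.85 and Vim at -0.02. The part of mesothelial, endothelial, leukocyte or fibroblast markers in the C3 difference was not tested. In a bulk culture, fewer cells that express a gene and less RNA in each cell cannot be told apart.

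C1s and C1ra encode the serine proteases that form the catalytic core of the C1 complex. They are neighbours on chromosome 6, at chr6:124530344-124542392 on the minus strand and chr6:124512621-124523440 on the plus strand, 6904 bases apart. C1s measured 8.85, 14.2 and 31.7 CPM in embryonic replicates 1, 2 and 3, against 204, 122 and 227 CPM in adult replicates 1, 2 and 3. Every adult value was thus above every embryonic one, and embryonic replicate 3 was the highest of its group. The log2 fold change was -3.34 (SE 0.53), about 10.1-fold higher in adults, and just missed the threshold (adjusted p = 0.055, edgeR). It passed without embryonic replicate 3, at a log2 fold change of -4.00 and adjusted p = 0.036.

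C1ra measured 3.97, 5.18 and 10.4 CPM in embryonic cultures and 28.4, 22.9 and 29.1 CPM in adult replicates 1, 2 and 3. It showed the same order among embryonic libraries as C1s, and tight adult values. Its log2 fold change of -2.04 (SE 0.38) did not pass (adjusted p = 0.073, edgeR). It was -2.55 with adjusted p = 0.025 without embryonic replicate 3. That library also held the most leukocyte marker RNA, 2358 CPM. Within E14.5 both genes followed the order of the leukocyte sum, whereas within the adult group neither did, and the part of leukocytes in these values was not tested. Limma-voom, which called 0.927% of all genes, called both C1s and C1ra (adjusted p = 0.042 and 0.048), and not C3 (0.063).

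The 2 proteases can be compared only per transcript length. On CPM per kilobase of the longest coding transcript, C1s exceeded C1ra by 2.25, 2.76 and 3.10 times in embryonic replicates 1, 2 and 3 and by 7.26, 5.41 and 7.91 times in adult replicates 1, 2 and 3. The ratio was thus higher in every adult library, a comparison chosen after the values were seen and not tested. Part of C1ra may be invisible here, because 40.1% of the 75-base windows of its transcript also occur exactly in its near-copy C1rb. The counting rules were not given, so whether reads that map to both copies were counted is not known. For C1s, 14.7% of windows occur in the copy C1s2. C1rb itself had at most 1 count in any library. C1rl, a C1r-like protease gene beside them and the 1 tested neighbour within 100 kb, measured 1.78 ± 1.05 CPM in embryonic cultures and 8.12 ± 2.13 CPM in adults (SD, n = 3 each), a log2 fold change of -2.19 (SE 0.49, adjusted p = 0.100, edgeR).

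Serping1, on chr2:84765360-84775444 on the minus strand, encodes C1 inhibitor, the serpin that inactivates C1R and C1S. Its level was 10.7, 6.61 and 15.0 CPM in embryonic cultures and 61.5, 101 and 38.1 CPM in adult replicates 1, 2 and 3. The groups did not overlap, and the log2 fold change was -2.63 (SE 0.46), or 6.20-fold higher in adults (adjusted p = 0.067, edgeR). The highest value was in adult replicate 2, the library with 1920 CPM of endothelial markers. Adult replicate 1, with 29.5 CPM of them, lay above all embryonic libraries in Serping1. The part of endothelial cells in the Serping1 difference was not tested. Per kilobase, Serping1 stood to the sum of C1s and C1ra as 1.40, 0.571 and 0.598 to 1 in the embryonic libraries. In the adult libraries this ratio was 0.442, 1.16 and 0.248. The ratio of Serping1 to C1s and C1ra therefore overlapped between the stages, although each of these genes was lower in the embryonic cultures. Masp1, some of whose products C1 inhibitor also blocks, is not in this ratio. It went the other way, at 36.4, 11.9 and 26.8 CPM per kilobase in embryonic and 3.10, 7.28 and 4.92 in adult replicates 1, 2 and 3.

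C4b and C2 encode the next substrates of the pathway, which C1S cuts to build the C3 convertase. C4b, on chr17:34728139-34743902 on the minus strand, was barely detected in embryonic cultures, with 0, 1 and 10 counts in embryonic replicates 1, 2 and 3. Adult replicates 1, 2 and 3 had 40, 31 and 22 counts, or 1.51, 1.54 and 0.773 CPM. No overlap was seen, but the counts are few, and 0 counts in embryonic replicate 1 still allow up to 0.0938 CPM (3 counts, counting error only). The fitted log2 fold change of -3.44 had an SE of 1.07 (adjusted p = 0.172, edgeR), and leaving out 1 library moved it between -5.99, without embryonic replicate 3, and -2.89. Of the 75-base windows of C4b, 23.5% also occur in the copy C4a, which had 2 to 13 counts per library, so the total for C4 is uncertain.

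C2, on chr17:34862602-34882100 on the minus strand, had overlapping groups. It measured 7.35, 11.5 and 16.7 CPM in embryonic cultures and 17.0, 6.41 and 11.4 CPM in adult replicates 1, 2 and 3. Each group held a value lower than 8 CPM and a value near 17 CPM. Its log2 fold change was 0.03, with an SE of 0.44 (adjusted p = 0.981, edgeR). In the same fit C1ra at -2.04 (SE 0.38), Serping1 at -2.63 (SE 0.46) and Masp1 at 2.29 (SE 0.49) did not pass. A C2 difference of such a size could therefore also go uncalled. Within each stage, C2 followed the order of the leukocyte marker sum, with its highest values in embryonic replicate 3 and adult replicate 1. Within E14.5, C1s, C1ra, C4b, Cfb and Cfp were in that order too. Within the adult group the mesothelial marker sum had the same order as the leukocyte sum. The part of these cell types in the C2 values was not tested. Relative to C2 per kilobase, C3 stood at 0.0569, 0.129 and 0.0637 in E14.5 and at 5.36, 7.01 and 2.47 in adult cultures, so the order of these 2 genes was opposite at the 2 stages in all 6 libraries.

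Cfb encodes factor B, the protease of the alternative pathway, at chr17:34856374-34862514, only 88 bases from C2 and on the same minus strand. It was close to the detection limit, with 2, 11 and 16 counts in embryonic cultures and 21, 7 and 6 counts in adult libraries, or 0.0625 to 0.795 CPM. The groups overlapped and the log2 fold change of -0.59 (SE 0.81, adjusted p = 0.787, edgeR) was within the spread between cultures. Most reads over Cfb lay on the wrong strand: 498 forward-strand against 63 reverse-strand counts over the 6 libraries, or 88.8% forward. For the other 8 genes the forward share was between 0.258% and 1.12%. Nelfe, an opposite-strand gene of transcription elongation, ends 2 bases from the end of Cfb and measured 24.5 to 31.1 CPM under its older symbol Rdbp. Whether its transcripts supply these reads was not tested. Of the stranded counts in each library, 80.9% to 97.6% were on the forward strand, so a count that ignores strand does not measure factor B.

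Cfp encodes properdin, which stabilises the alternative C3 convertase and is known mainly from myeloid cells. It lies on chrX:20925454-20931555 on the minus strand. Its level was 4.07, 9.84 and 17.0 CPM in embryonic cultures and 3.41, 1.49 and 1.69 CPM in adult replicates 1, 2 and 3. The groups did not overlap, but embryonic replicate 1 was only slightly above adult replicate 1. The log2 fold change was 2.22 (SE 0.61), or 4.67-fold higher in E14.5, and did not pass (adjusted p = 0.140, edgeR). The 6 libraries had the same order in Cfp and in the summed leukocyte markers, from adult replicate 2 through adult replicates 3 and 1 to embryonic replicates 1, 2 and 3. Of the 9 genes this held for Cfp alone. All 15 tested leukocyte markers had positive log2 fold changes, 14 without overlap, where 12.1% of all genes tested were higher without overlap. In edgeR 0 of the 15 passed (14 at an unadjusted p under 0.05, 13 called by DESeq2, 0 by limma-voom). The most abundant, the macrophage genes Lyz2 and Csf1r, reached 766 and 295 CPM in embryonic replicate 3, and the neutrophil gene S100a9 had no counts in any library. Their part in the Cfp difference was not tested.

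**Figure D2:**
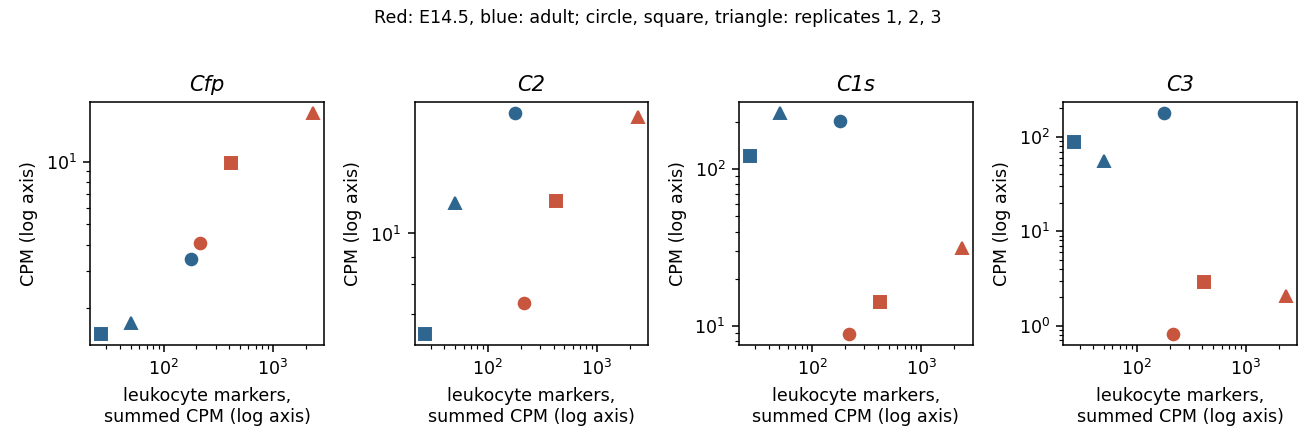
Level of Cfp, C2, C1s and C3 (CPM, log axis) against the summed CPM of macrophage and leukocyte markers (log axis) in each library, red for E14.5 and blue for adult. Cfp lies in the order of the marker sum in all 6 libraries, whereas C1s and C3 are higher in the adult libraries, where the sum is lower.

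Masp1 encodes proteases of the lectin pathway and, through alternative splicing, MASP-3 and a short form without protease activity, which gene counts cannot separate. It lies on chr16:23451785-23521240 on the minus strand. Masp1 measured 194, 63.4 and 143 CPM in embryonic cultures and 16.6, 38.9 and 26.3 CPM in adult replicates 1, 2 and 3. Every embryonic library was higher, and the smallest gap was between embryonic replicate 2 and adult replicate 2. The means were 134 ± 66.1 and 27.3 ± 11.2 CPM (SD, n = 3 each). The log2 fold change was 2.29 (SE 0.49), or 4.90-fold higher in E14.5, without passing (adjusted p = 0.097, edgeR). Without embryonic replicate 2, adjusted p was 0.033 at a log2 fold change of 2.63. Within E14.5, Masp1 was not in the order of the leukocyte marker sum: embryonic replicate 1, with the lowest sum of that group, had the highest Masp1. Between the stages, both were higher in every embryonic library than in any adult one. Within the adult group Masp1 was in the order of the endothelial marker sum. The part of these cell types in the Masp1 difference was not tested.

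The make-up of the 9 genes was described by each gene's share of their summed CPM per kilobase. Masp1 took 69.7%, 35.7% and 40.0% of that sum in embryonic replicates 1, 2 and 3 and 1.94%, 5.41% and 3.79% in adult replicates 1, 2 and 3. C1s took 5.75%, 14.5% and 16.1% in E14.5 and 43.2%, 30.9% and 59.5% in adults. C3 took 0.303% to 1.69% in E14.5 and 8.24% to 21.6% in adult libraries. By mean level per kilobase, the order in E14.5 was Masp1, Cfp, C1s, Serping1, C2, C1ra, C3, Cfb and C4b. Cfp, C1s and Serping1, at 6.30 ± 3.96, 6.19 ± 4.05 and 6.11 ± 2.39 CPM per kilobase (SD, n = 3), had overlapping spreads. Their order changed between libraries, as did that of Serping1 and C2. The spreads of C2 and C1ra, C3 and Cfb, and Cfb and C4b also overlapped, but the first of each pair was higher in all 3 embryonic libraries. In adult cultures the order was C1s, Serping1, C3, C1ra, Masp1, C2, Cfp, C4b and Cfb. There C1s and Serping1, at 62.6 ± 18.7 and 37.9 ± 18.1 CPM per kilobase, had overlapping spreads and changed order between libraries. So did Masp1 and C2, at 5.10 ± 2.10 and 4.40 ± 2.01 CPM per kilobase, and C4b and Cfb. The spreads of Serping1 and C3, and of C3 and C1ra, also overlapped, but the first of each pair was higher in all 3 adult libraries. Masp1 has coding transcripts of 2035 to 5345 bases, so its level per kilobase depends on the form expressed.

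**Figure D3:**
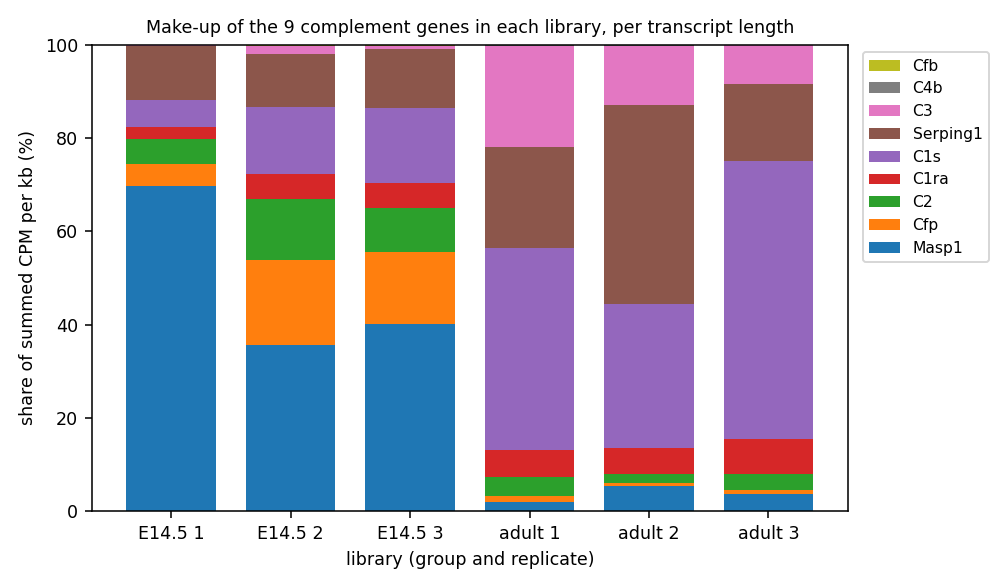
Share of each of the 9 genes in their summed CPM per kilobase of longest coding transcript (%, linear axis), for each E14.5 and adult library. Masp1 makes up 35.7% to 69.7% of the embryonic bars, and C1s with Serping1 and C3 most of the adult bars.

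The sequences before the transcription start are shown for 3 genes with different patterns: C3, the called gene, C1s, lower in every embryonic library, and Cfp, higher in every embryonic library. They come from RefSeq (GRCm38.p6, the mm10 build), which gave a promoter for 4 of the 9 genes. Windows of 250 bases before the start were searched on both strands for TTNCNNAA, an 8-letter C/EBP pattern, and for the interferon-stimulated element GAAANNGAA, the STAT pattern TTCNNNGAA, the TATA box TATAAA and the kB site. The bases are written 5′ to 3′ along the gene, with C/EBP pattern matches in capitals, and C1s is cut to the 217 bases that precede every annotated start.
C3, chr17:57228137-57228386, minus strand: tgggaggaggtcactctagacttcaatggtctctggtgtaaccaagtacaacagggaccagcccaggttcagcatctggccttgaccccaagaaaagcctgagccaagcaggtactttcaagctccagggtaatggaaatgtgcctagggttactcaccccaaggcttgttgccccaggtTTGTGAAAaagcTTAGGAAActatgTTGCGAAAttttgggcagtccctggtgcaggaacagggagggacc
C1s, chr6:124542393-124542609, minus strand: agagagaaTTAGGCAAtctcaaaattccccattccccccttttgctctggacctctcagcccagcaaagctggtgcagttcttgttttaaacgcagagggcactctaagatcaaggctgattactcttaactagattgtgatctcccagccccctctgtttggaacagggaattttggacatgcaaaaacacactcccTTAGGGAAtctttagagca
Cfp, chrX:20931556-20931805, minus strand: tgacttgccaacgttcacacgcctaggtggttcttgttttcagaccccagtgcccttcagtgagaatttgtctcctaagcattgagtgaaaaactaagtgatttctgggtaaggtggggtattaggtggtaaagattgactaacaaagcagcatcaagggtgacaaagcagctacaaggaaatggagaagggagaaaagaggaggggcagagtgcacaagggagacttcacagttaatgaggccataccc

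The C3 window held 3 matches to the C/EBP pattern, between 70 and 38 bases before the start, the C1s window held 2, and that of Cfp had none. The C1ra window, most of which lies past the start of the gene in GENCODE and is not printed, held 2. The pattern is short and occurs in 36.9% of 32851 promoter windows of the same length, and matches to it can overlap one another. None of the other 4 patterns occurred in the windows of these 4 genes. They occur in 7.13% (GAAANNGAA), 7.02% (TTCNNNGAA), 12.4% (TATAAA) and 7.25% (kB) of all windows. Among genes for factors of the C/EBP family and for the signals that act on complement genes, 0 of 20 tested passed in edgeR, 8 had an unadjusted p under 0.05, 5 were called by DESeq2 and 0 by limma-voom. Of the 20, 6 had a positive and 14 a negative value, with a median of -0.40. The members of highest level were Il6st, the shared receptor chain of the IL-6 family, at 202 ± 22.6 and 271 ± 34.4 CPM in embryonic cultures and adults, and Stat3, its transcription factor, at 158 ± 12.8 and 209 ± 44.0 CPM (SD, n = 3 each). Named after their values were seen, the receptor genes Il1r1 for IL-1 and Osmr for oncostatin M had log2 fold changes of -1.99 (SE 0.33, adjusted p = 0.062) and -1.95 (SE 0.37, adjusted p = 0.080, edgeR).

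Several complement genes respond to interferon, so interferon response genes were read as a list. Of 17 tested, 0 passed in edgeR, 2 had an unadjusted p under 0.05, with 1 call by DESeq2 and 0 by limma-voom. The median log2 fold change was -0.27. B2m, the light chain of MHC class I, measured 388 ± 123 CPM in embryonic cultures and 421 ± 20.0 CPM in adults, and Tapbp, a chaperone of peptide loading, measured 55.4 ± 16.0 and 73.9 ± 16.4 CPM (SD, n = 3 each).

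C2 and Cfb lie in the MHC class III region, where neighbouring genes were read for comparison. Of 12 tested genes that start within 100 kb of either, 0 passed in edgeR. Groups did not overlap for 2 of the 12, against 24.1% of all genes tested. These were Neu1 (higher in E14.5) and Hspa1b (lower), both named after their values were seen. The median log2 fold change of the 12 was -0.003. C4b lies 112472 bases from Cfb, beyond that distance, and C3 lies 22321867 bases from C2.

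The rest of the cascade was read from lists by role. Of 51 further complement symbols, 46 had a row and 23 were tested. In edgeR 0 of these passed, 12 had an unadjusted p under 0.05, 11 were called by DESeq2 and 0 by limma-voom. Of the 23, 14 had a positive value and 9 a negative one, with a median of 0.34. Groups did not overlap for 8 higher and 4 lower, against 12.1% higher and 12.0% lower of all genes tested. DESeq2 called 10.6% of all genes it gave an adjusted p, and 7 of the 9 main genes, all but C2 and Cfb.

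Of 6 recognition genes tested, 0 passed in edgeR, 4 had an unadjusted p under 0.05, and DESeq2 gave 4 calls and limma-voom 0. C1qa, C1qb and C1qc encode the chains of C1q, and C1qc measured 28.9, 43.2 and 341 CPM in embryonic cultures and 15.4, 1.24 and 3.30 CPM in adult replicates 1, 2 and 3. Embryonic replicate 3 stood far above the others. The C1qc log2 fold change of 4.36 did not pass (SE 1.37, adjusted p = 0.175, edgeR), nor did that of C1qa, at 4.38 (SE 1.45, adjusted p = 0.191). Among classical pathway genes, the C1q chains were thus higher in E14.5, C1s, C1ra and C4b were higher in adults, and C2 overlapped. None of these differences passed in edgeR. The C1q chains were highest in the library with the most leukocyte marker RNA, and the part of leukocytes was not tested. Colec12, a scavenger receptor with a collectin domain, measured 101 ± 42.6 and 77.6 ± 14.9 CPM (SD, n = 3 each). Colec11, a collectin that binds MASP proteases and named after its values were seen, measured 0.907, 0.559 and 0.803 CPM in embryonic cultures and 4.09, 15.0 and 5.87 CPM in adult cultures (log2 fold change -3.45, SE 0.59, adjusted p = 0.064, edgeR). Colec10, another collectin, overlapped between the stages, with a log2 fold change of 1.89 (SE 0.93).

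Soluble regulators restrain the cascade away from the cell surface. Clu, which encodes clusterin, an inhibitor of the membrane attack complex, measured 68.3 ± 14.3 and 95.4 ± 29.4 CPM and overlapped. Susd4, a membrane and soluble inhibitor, measured 2.93 ± 1.95 and 2.20 ± 1.10 CPM (SD, n = 3 each).

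Membrane regulators protect host cells from their own complement. Of 5 tested, 0 passed in edgeR, 0 had an unadjusted p under 0.05, and DESeq2 and limma-voom called 0. Groups overlapped for all 5, and the median log2 fold change was 0.12. Cd55, which speeds decay of the C3 convertase, measured 64.2 ± 20.4 and 56.8 ± 15.1 CPM, Cd59a, which blocks pore formation, 67.8 ± 21.7 and 102 ± 39.3 CPM, and Cr1l, a cofactor for C3b cleavage, 56.5 ± 7.37 and 52.0 ± 1.95 CPM in embryonic cultures and adults (SD, n = 3 each). For Cr1l the log2 fold change was 0.12 with an SE of 0.13.

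Receptors for complement fragments had higher values in E14.5 for 5 of 6 tested. Groups did not overlap for those 5, and 12.1% of all genes tested were higher without overlap. In edgeR 0 of the 6 passed, 5 had an unadjusted p under 0.05, and DESeq2 gave 5 calls and limma-voom 0. C3ar1, the receptor for C3a, measured 10.1, 25.8 and 115 CPM in embryonic cultures and 5.45, 0.944 and 2.71 CPM in adult replicates 1, 2 and 3 (log2 fold change 4.04, SE 1.09, adjusted p = 0.138, edgeR). Itgam, a chain of the receptor for cleaved C3b on myeloid cells, had a log2 fold change of 4.60 (SE 1.34, adjusted p = 0.152). Cd93, which is also endothelial, was the exception at -0.11 (SE 0.72). The ligand gene C3 and the receptor gene C3ar1 thus had opposite values, and C3ar1 was highest in embryonic replicate 3, the library with 2358 CPM of leukocyte markers.

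Genes of the terminal pathway, which builds the pore, were near 0. Hc (C5), C6, C7, C8a, C8b and C9 had at most 5 counts in any library. C8g, which encodes the lipocalin chain of C8, had 5 to 14 counts. Cfd, the protease that activates factor B, and Vtn, an inhibitor of the pore, had 0 counts in the column used.

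**Figure D4:**
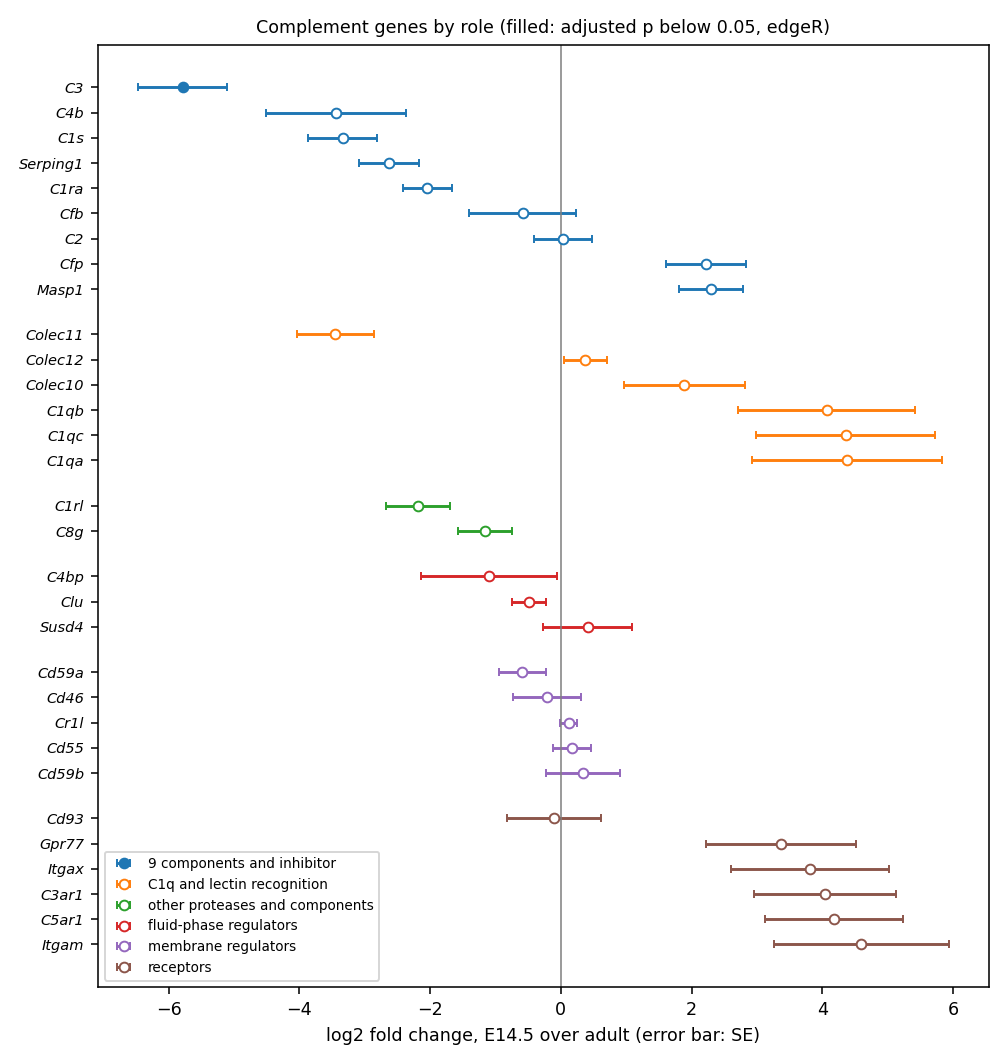
Log2 fold change (E14.5 over adult, linear axis) with its SE for the 9 main genes and further complement genes, coloured by role. C3 alone is filled as past the test, at -5.79, and the C1q chains and most receptors lie at positive values with wide errors.

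Over the 6 libraries, the genes most like C3 in log2 CPM by Pearson's r, among 8839 named genes with at least 10 CPM in a group, were Apbb1 (r = 0.995), Mxra8 (0.994), Pdzd2 (0.993), Fmo2 (0.992) and Itsn1 (0.989). Those most like C1s, the gene with the highest mean CPM of the 9, were Fcgrt (0.998), C1ra (0.996), Camkk2 (0.994), Lypla1 (0.993) and Pkig (0.993). C1ra, one of the 9, was thus second of 8839 in its likeness to C1s. These values describe 6 libraries in 2 groups, and the difference between the groups enters every one of them.

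**Figure D5:**
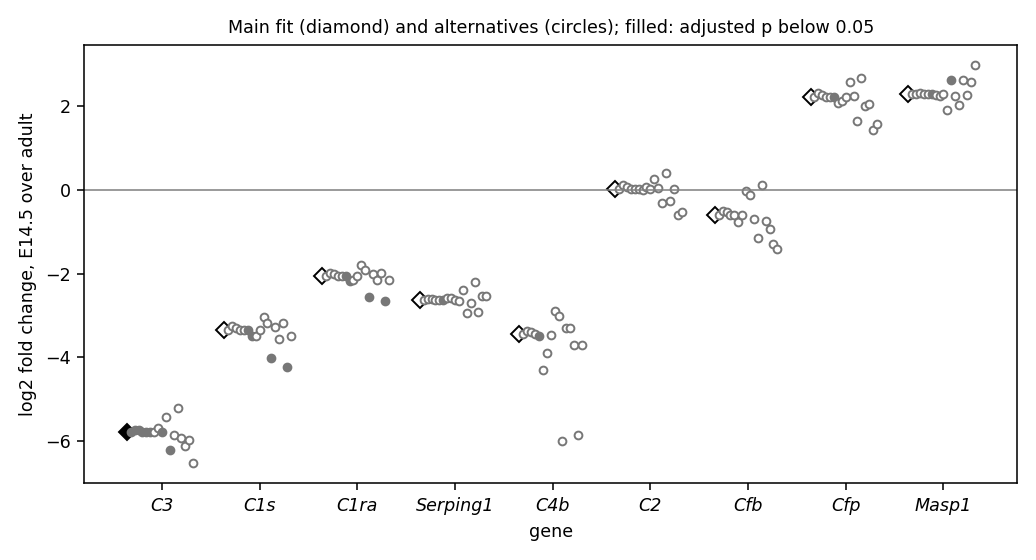
Log2 fold change (E14.5 over adult, linear axis) of each of the 9 genes in the edgeR fit reported in the text (diamond) and in up to 17 alternative fits (circles), filled where adjusted p was below 0.05. C3 stays between -6.53 and -5.21 and Masp1 between 1.91 and 3.00, and C2 and Cfb cross 0.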

How the data were processed

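RNA-seq of 3 E14.5 and 3 adult mesenchymal cultures was read from a single end over 75 bases, from stranded poly(A) libraries. The authors deposited raw counts per gene, 1 table per library, aligned with STAR to mm10 per the submitters' processing notes; the STAR version, annotation and counting rules were not given in the sources used here. Reverse-strand counts were used, since forward-strand counts were 1.33% to 1.69% of stranded gene counts. Rows for reads outside genes (17.45% to 19.81% per library) were left out.

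Counts were filtered with filterByExpr and tested across 13478 genes with edgeR 4.0.16 in R 4.3.3 (TMM, robust quasi-likelihood, Benjamini-Hochberg, adjusted p of 0.05). SE is the size of the log2 fold change divided by the square root of F. CPM uses TMM-scaled library sizes; CPM per kilobase uses the longest coding GENCODE M21 transcript. Replicates were numbered in accession order. The steps were tested on simulated data. DESeq2 1.42.0, limma-voom (limma 3.58.1), other scalings and filters, the unstranded column, the title prefix as a block and left-out libraries were alternatives. Coordinates are from RefSeq (GRCm38.p6). Exact 75-base windows were sought in GENCODE transcripts of genes at other loci.

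The members, lists and alternatives were chosen with earlier results of these data known. Named genes are all 9 members, the 3 most abundant tested genes of each complement list, the 2 most abundant of the regulator, interferon and marker lists, any past the threshold in the lists other than markers, and the 5 genes most like C3 and the most abundant member; others are marked in the text as named after their values were seen. A few genes taken by the rule are left out.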

Additional observations from a re-analysis of the deposited data

How the results depend on the processing

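The 146 genes called over all became 1427 with DESeq2, 2 with the title prefix as replicate block (0 of the 9 complement genes, 7 at an unadjusted p under 0.05), 36 with adult replicate 2 and embryonic replicate 3 left out, and 0 in edgeR without adult replicates 2 and 3 (842 at an unadjusted p under 0.05), where the lone adult library is assumed to vary like the others. Leaving out 1 library gave from 3 genes, when embryonic replicate 1 or adult replicate 3 was dropped, to 471, when embryonic replicate 2 was dropped. Dropping adult replicate 1 or 2 gave 38 or 46.

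Of the 9 complement genes, 1 was called as reported, 7 with DESeq2, 2 with limma-voom (C1s and C1ra), 2 with that pair of libraries left out (again C1s and C1ra), 0 without adult replicates 2 and 3 (5 at an unadjusted p under 0.05), and 0 to 2 without 1 library. Adjusted p of C3 was 0.127 with the block, 0.116 and 0.319 in the 2 fits without 2 libraries, and between 2.8e-22 (DESeq2) and 0.319 over all alternatives.

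Deviations from the group mean correlated at -0.137, -0.238 and -0.102 for libraries of the same title prefix. For libraries of different prefixes the values lay between -0.106 and 0.206. Libraries of the same prefix were thus no more alike by this measure. With 3 libraries in each group, it cannot decide whether a prefix marks a shared origin or batch. The median of the 9 stayed between -2.55 and -1.80 over all alternatives. Direction held in every fit for C3, C1s, C1ra, C4b, Serping1, Masp1 and Cfp. Without 1 library, C2 lay between -0.30 (no embryonic replicate 3; -0.26 with no adult replicate 2) and 0.41, and Cfb between -1.14 and 0.12 (no adult replicate 1), and both reversed there. C2 was -0.59 with embryonic replicate 3 and adult replicate 2 left out and -0.53 with adult replicates 2 and 3 left out; the cause was not tested. The filter of 1 CPM in 3 libraries left C4b and Cfb untested. Depth limits C4b and Cfb most, with at most 40 and 21 counts.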
